A study of Mus musculus with 8 samples.

Results

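The 10 most abundant major urinary protein genes of mouse liver were *Mup22*, *Mup7*, *Mup3*, *Mup20*, *Mup19*, *Mup18*, *Mup11*, *Mup14*, *Mup1* and *Mup16*. They were chosen by their measured values, as the 10 highest of 20 symbols formed by *Mup* and a number when raw counts were summed over all 8 libraries of a table of 16540 genes. The sum does not use the contrast between groups, although the sum of a gene grows with the level in either group. The sums ran from 1780016 counts for *Mup22* to 33044 for *Mup16*, just inside the limit, while *Mup9* lay just outside with 22443. All 10 passed the filter on low counts, which left 12307 genes for testing.

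Liver RNA was sequenced from 4 mice that received vehicle and 4 that received isoginkgetin (ISOGK), a biflavonoid of Ginkgo biloba, with 1 library per mouse. All 8 mice carried the *Apoe*-/- genotype, which raises plasma cholesterol, and the study fed them a diet rich in cholesterol, called a Western diet in the labels, before and during treatment. Daily intraperitoneal doses of ISOGK were 20 mg/kg over 8 weeks, and the vehicle group shared genotype, diet and duration without the compound. Strain details beyond the knockout, age and the sex of the sequenced mice are not stated in the labels, and 4 Y-linked genes had at least 109 counts in every library.

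Major urinary proteins are small secreted lipocalins that hepatocytes release into the blood and that the kidney passes into the urine, where they bind volatile pheromones and mark the identity of a mouse. Their transcripts are among the most abundant of the liver of male mice. Transcription is known to follow the pulses of growth hormone in males through the factor STAT5B, and to respond to thyroid hormone and glucocorticoid. The genes lie in a cluster of recent copies, so that a read can match several of them.

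All 10 genes were on the minus strand of chromosome 4, within 2.02 Mb from chr4:60066469-62087342 (GENCODE M21, GRCm38), and each is annotated as protein-coding. Their representative transcripts all had 7 exons and between 540 and 552 coding bases. Over the 28 pairs that leave out *Mup3* and *Mup20*, coding sequences were 98.3% to 99.8% identical. *Mup3* and *Mup20* were 82.1% to 91.3% identical to the other copies and 86.6% identical to each other. The same 60 coding bases of exon 2 are given below, since they hold the most distinct sequences (6) of any such stretch of equally long exons and show how little separates the copies. Capitals mark bases that differ from *Mup22*. The stretch of *Mup19* was the same in *Mup18*, *Mup11*, *Mup1* and *Mup16*.

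Mup22: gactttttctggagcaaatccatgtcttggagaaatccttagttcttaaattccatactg
Mup19: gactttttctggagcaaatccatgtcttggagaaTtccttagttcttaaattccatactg
Mup7: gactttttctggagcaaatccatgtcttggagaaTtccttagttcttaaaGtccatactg
Mup14: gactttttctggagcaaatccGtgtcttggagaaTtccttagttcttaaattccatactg
Mup20: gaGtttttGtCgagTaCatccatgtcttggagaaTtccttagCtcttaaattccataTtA
Mup3: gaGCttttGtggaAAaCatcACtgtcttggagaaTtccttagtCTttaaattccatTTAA

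In GRCm38 the stretch of *Mup22* lay at chr4:60820849-60820908, that of *Mup19* at chr4:61781592-61781651 and that of *Mup7* at chr4:60069734-60069793. Those of *Mup14*, *Mup20* and *Mup3* lay at chr4:61303323-61303382, chr4:62053481-62053540 and chr4:62086801-62086860. Every stretch of 50 bases in the transcripts of *Mup22* and *Mup19* occurred in a transcript of another *Mup* gene (100%), and the same held for 89% to 97.6% of those in *Mup7*, *Mup18*, *Mup11*, *Mup14*, *Mup1* and *Mup16*. For *Mup3* the share was 14.9% and for *Mup20* it was 4.66%. The 27 annotated *Mup* pseudogenes were left out of this comparison, so shares that include them could be higher. Values of single copies are uncertain, by these shares least so for *Mup3* and *Mup20*, because the counting could have divided reads between copies. A family total is less exposed to that division.

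Libraries held between 17457106 and 24461854 counts, and values are given as counts relative to library size (CPM) with the trimmed-mean (TMM) factors of edgeR. These factors did not overlap between the groups (1.02 to 1.09 for vehicle, 0.883 to 1.01 for ISOGK). The 8 hepatocyte markers summed to between 147580 and 159530 CPM with vehicle and between 138270 and 170180 CPM with ISOGK. The 10 skeletal muscle markers had 1844 counts in vehicle 4 and at most 16 in any other library, and their part in the results was not tested. Without vehicle 4, 0 of the 10 genes passed an adjusted p of 0.05 in edgeR, where 4.42% of all tested genes passed. With all mice 0 of the 10 passed as well, where 7.55% of all tested genes did. The 5 Kupffer cell markers summed to between 906 and 1066 CPM with vehicle and between 719 and 917 CPM with ISOGK, and their part was not tested either. The largest portion of these sums was *Cd5l*, at 577 to 667 CPM with vehicle and 407 to 560 CPM with ISOGK. By edgeR 0 of the 5 were called, where 7.55% of all tested genes were. *Clec4f* alone had a positive log2 fold change (0.06). The 5 cholangiocyte markers summed to between 27.5 and 34.8 CPM with vehicle and between 28.2 and 69.1 CPM with ISOGK. The lowest of these ISOGK sums was that of ISOGK 4, which lay among the vehicle mice. All 5 had positive log2 fold changes (median 0.61), where 6173 of all 12307 tested genes did. In edgeR 4 were higher at an unadjusted p under 0.05, where 12.5% of all tested genes were. *Sox9*, a transcription factor of bile duct cells, was called (edgeR adjusted p = 0.0494) with groups that did not overlap. Over all tested genes 4.11% were called higher. The part of bile duct cells in the results was not tested. In bulk liver, fewer cells of a type and less RNA per cell cannot be told apart.

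The summed level of the 10 genes was higher in 3 of the 4 ISOGK mice than in any vehicle mouse, and the groups overlapped through ISOGK 3. The family total was 42275, 29534, 29391 and 26196 CPM in vehicle 1 to 4 and 78298, 63295, 29447 and 51668 CPM in ISOGK 1 to 4. ISOGK 3 lay inside the range of the vehicle group, and the other ISOGK mice lay above it. The means were 31849 ± 7119 CPM (SD, n = 4) with vehicle and 55677 ± 20606 CPM with ISOGK, a ratio of 1.75 and a log2 ratio of 0.81. No test was made of this total, since its members were picked from the same counts. Without ISOGK 3 the log2 ratio was 1.01 and without ISOGK 1 it was 0.60. With all mice and scaling by library size alone it was 0.67. As a share of all counts of a library, the 10 genes took 2.74% to 4.30% with vehicle and 2.98% to 7.59% with ISOGK. They made up 98.1% to 99.2% of the counts of all *Mup* symbols in every library.

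**Figure D1:**
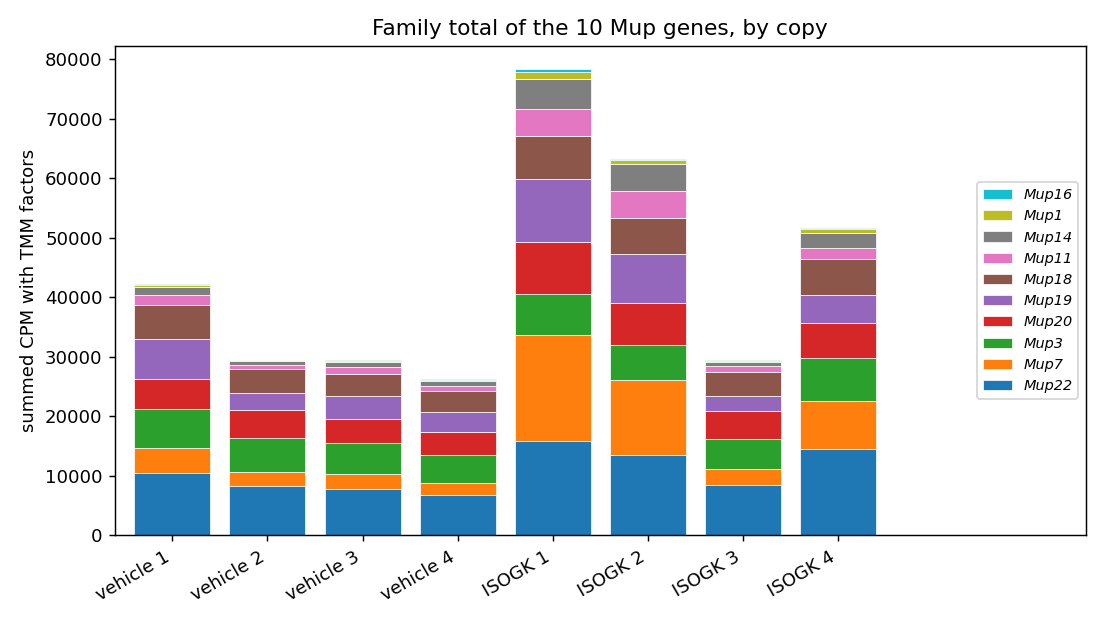
Bars give the summed CPM (TMM-scaled) of the 10 *Mup* genes in each of the 8 mice, with a colour for each copy. The total of ISOGK 3 (29447 CPM) lies among those of the vehicle mice (26196 to 42275 CPM), and ISOGK 1, 2 and 4 reach 51668 to 78298 CPM.

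ISOGK 3 did not stand apart from its group in every transcript. *Ehhadh*, a peroxisomal enzyme of fatty acid oxidation, was at 267 to 336 CPM in the vehicle group, 1629 CPM in ISOGK 3 and up to 2053 CPM in ISOGK 2. *Cyp4a14*, a fatty acid hydroxylase, was at 1019 to 1423 CPM with vehicle and at 6456 CPM in ISOGK 3, the highest of its group. Both genes were picked after their values had been seen. In both, ISOGK 3 lay with the other ISOGK mice and far above the vehicle mice.

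In the quasi-likelihood test of edgeR over all 12307 genes, 0 of the 10 copies passed an adjusted p of 0.05, where 7.55% of all tested genes passed. All 10 log2 fold changes were positive, with a median of 0.78 beside 0.0018 over all tested genes. At an unadjusted p under 0.05, 8 of the 10 were higher with ISOGK, where 12.5% of all tested genes were. A log2 fold change over 1 was found for 4 of the 10 (*Mup7*, *Mup11*, *Mup14* and *Mup1*) and for 1.86% of all tested genes. Copies with shared stretches may share reads, so the 10 are not separate observations in any of these counts. The Wald test of DESeq2 called 5 of the 10 (*Mup22*, *Mup7*, *Mup20*, *Mup14* and *Mup1*), where it called 11.7% of all tested genes. With limma-voom 0 of the 10 were called, with 8 at an unadjusted p under 0.05, and 7.09% of all tested genes were called. The groups overlapped in all 10, while 15.3% of all tested genes had groups that did not overlap. In each of the 10, vehicle 1 was the highest vehicle mouse and ISOGK 3 the lowest ISOGK mouse. Leaving out ISOGK 3 gave 6 calls by edgeR (*Mup22*, *Mup7*, *Mup20*, *Mup18*, *Mup14* and *Mup1*), where 9.92% of all tested genes were then called (1235 of 12447). Leaving out any other mouse gave 0 of the 10 and between 379 and 985 calls over all tested genes.

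**Figure D2:**
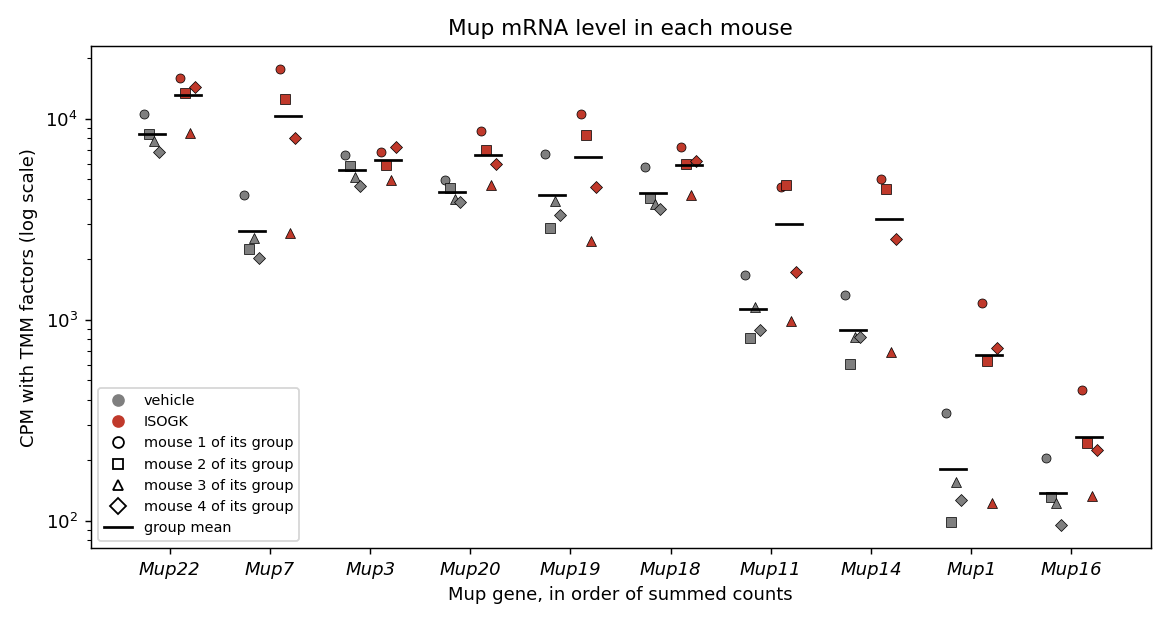
Each point is the CPM (TMM-scaled, log axis) of a *Mup* gene in a mouse, grey for vehicle and red for ISOGK, with a shape for the number of the mouse and a line for the group mean. The triangle of ISOGK 3 is the lowest red point in all 10 genes, and the circle of vehicle 1 is the highest grey point.

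*Mup22*, whose coding sequence was 99.8% identical to that of *Mup18*, took the most counts of the family in all vehicle mice and in 3 ISOGK mice. It was at 10524, 8378, 7772 and 6821 CPM in vehicle 1 to 4 and at 15927, 13465, 8492 and 14467 CPM in ISOGK 1 to 4. ISOGK 1, 2 and 4 lay above every vehicle mouse, and ISOGK 3 lay between vehicle 1 and vehicle 2. On the log2 scale ISOGK exceeded vehicle by 0.64 ± 0.19 (standard error), with an adjusted p in edgeR of 0.0648. Over 17 alternatives the adjusted p ran from 0.0107 to 0.156.

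*Mup20* encodes darcin, the male pheromone protein that attracts females and shared few stretches with the other copies (4.66% of those of 50 bases). Its level was 4946, 4543, 3973 and 3857 CPM in vehicle 1 to 4 and 8741, 6987, 4685 and 5937 CPM in ISOGK 1 to 4. Only ISOGK 3 fell among the vehicle mice, below vehicle 1 alone. The log2 fold change was 0.61 (standard error 0.17), and the edgeR adjusted p of 0.0515 was the lowest of the 10. It ran from 0.0107 to 0.132 over the 17 alternatives, 4 of which called *Mup20*.

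*Mup3*, the other divergent copy, differed least between the groups. It had 6622, 5801, 5163 and 4648 CPM in vehicle 1 to 4 and 6825, 5896, 4991 and 7247 CPM in ISOGK 1 to 4. The groups covered nearly the same range, with ISOGK 1 and 4 above all vehicle mice. The log2 fold change of 0.17 (standard error 0.14) had an edgeR adjusted p of 0.516, and none of the 17 alternatives called it (0.268 to 0.896). Scaling by library size alone lowered it to 0.03.

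*Mup7*, *Mup1* and *Mup14* had fold changes that lay within a standard error of each other. The values of *Mup7* were 4167, 2260, 2567 and 2038 CPM in vehicle 1 to 4. They were 17762, 12623, 2708 and 8045 CPM in ISOGK 1 to 4. ISOGK 1 was thus above ISOGK 3 by a factor of 6.56, whereas the vehicle mice differed by at most 2.04. ISOGK 3 lay below vehicle 1, and the other ISOGK mice lay above all vehicle mice. The difference of group levels in edgeR was 1.90 in log2 units (standard error 0.56, adjusted p = 0.0913, 0.00486 to 0.209 over the alternatives). Without ISOGK 3 it was 2.21 (edgeR adjusted p = 0.0106).

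*Mup14* showed the same arrangement at a lower level. Its values were 1334, 605, 818 and 819 CPM in vehicle 1 to 4 and 5009, 4503, 695 and 2518 CPM in ISOGK 1 to 4. ISOGK 3 was below 3 vehicle mice, and the other ISOGK mice were above all of them. ISOGK over vehicle gave 1.83 in log2 units, with a standard error of 0.60 and an edgeR adjusted p of 0.119 (0.0068 to 0.255 over the alternatives).

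*Mup11* had 1679, 810, 1160 and 887 CPM in vehicle 1 to 4 and 4594, 4675, 985 and 1723 CPM in ISOGK 1 to 4. ISOGK 4 was barely above vehicle 1, and ISOGK 3 was below 2 vehicle mice. In edgeR, the log2 ratio of the groups came to 1.40 with a standard error of 0.54 (adjusted p = 0.172), and none of the 17 alternatives called it (0.0503 to 0.333).

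*Mup1*, the copy whose circulating protein has been linked to glucose metabolism in mice, was low beside the others. It had 346, 98.5, 156 and 127 CPM in vehicle 1 to 4 and 1212, 628, 123 and 722 CPM in ISOGK 1 to 4. ISOGK 3 lay above vehicle 2 alone. On the log2 scale ISOGK exceeded vehicle by 1.88 ± 0.73 (standard error), with an adjusted p in edgeR of 0.176 (0.0394 to 0.334 over the alternatives).

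*Mup19* differed as much within groups as between them. It had 6690, 2866, 3902 and 3341 CPM in vehicle 1 to 4 and 10550, 8279, 2465 and 4603 CPM in ISOGK 1 to 4. ISOGK 3 lay below all vehicle mice and ISOGK 4 below vehicle 1. The difference of group levels in edgeR was 0.62 in log2 units (standard error 0.48, adjusted p = 0.481), and none of the 17 alternatives called it (0.178 to 0.757).

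*Mup18* had 5762, 4042, 3756 and 3562 CPM in vehicle 1 to 4 and 7231, 5995, 4173 and 6181 CPM in ISOGK 1 to 4. ISOGK over vehicle gave 0.46 in log2 units, with a standard error of 0.19 and an edgeR adjusted p of 0.155 (0.0498 to 0.304 over the alternatives). *Mup16*, the lowest of the 10, had 205, 131, 123 and 95.0 CPM in vehicle 1 to 4 and 447, 244, 132 and 226 CPM in ISOGK 1 to 4. In edgeR, the log2 ratio of the groups came to 0.92 with a standard error of 0.39 (adjusted p = 0.197, 0.0364 to 0.339 over the alternatives). In both genes ISOGK 3 lay below vehicle 1 and the other ISOGK mice lay above all vehicle mice.

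**Figure D3:**
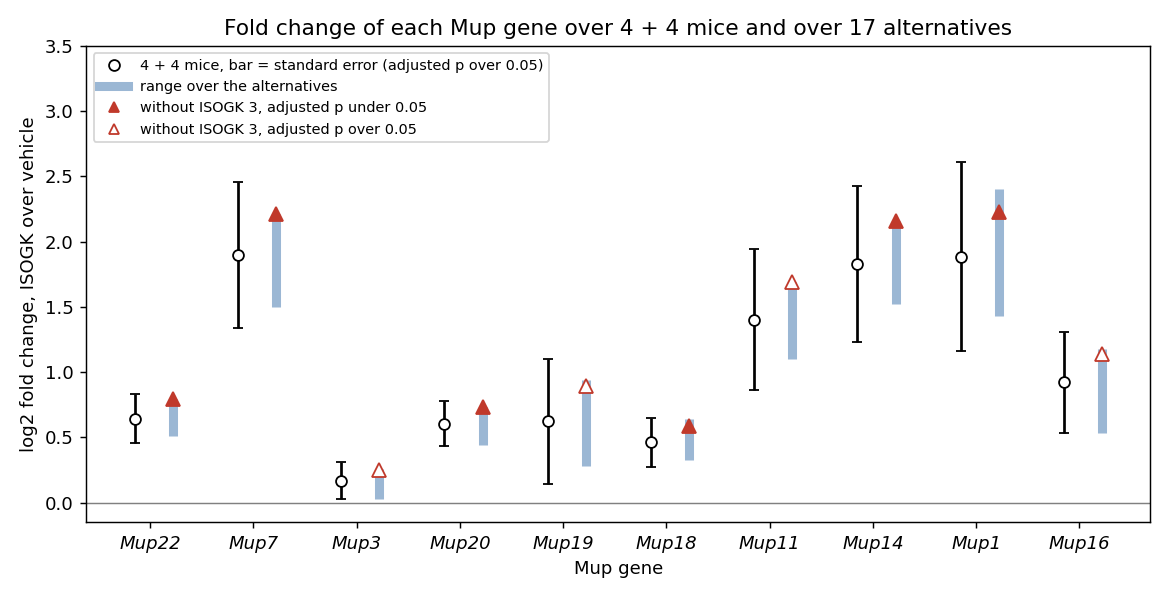
Circles give the log2 fold change (ISOGK over vehicle) of each *Mup* gene over all 8 mice with its standard error, blue bars the range over 17 alternatives and triangles the value without ISOGK 3. All values are above 0, from 0.17 for *Mup3* to 1.90 for *Mup7*, and the filled triangles mark the 6 genes called without ISOGK 3.

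The mix of copies was compared as the share of each copy in the raw counts of the 10 genes, which depth and scaling do not change. *Mup7* took 9.86%, 7.65%, 8.74% and 7.78% of these counts in vehicle 1 to 4 and 22.7%, 19.9%, 9.20% and 15.6% in ISOGK 1 to 4. It ranked 6 by counts in every vehicle mouse and ranked 1, 2, 5 and 2 in ISOGK 1 to 4. The share of *Mup3* was 15.7% to 19.6% with vehicle and was 8.72%, 9.31%, 16.9% and 14.0% in ISOGK 1 to 4. *Mup22* kept the largest share in vehicle mice, at 26.4% ± 1.44 (SD, n = 4), and took 24.6% ± 4.42 with ISOGK.

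*Mup14* went in mean share from 2.78% ± 0.515 (SD, n = 4) to 5.19% ± 2.10, and *Mup1* went from 0.542% ± 0.203 to 1.09% ± 0.506. *Mup18*, *Mup20* and *Mup19* had mean shares of 13.4%, 13.8% and 12.9% with vehicle and 11.2%, 12.4% and 11.0% with ISOGK. With all mice, 0 of the 10 shares separated the groups, and no test was made of them. Without ISOGK 3 there were 6 that did, namely *Mup7*, *Mup14* and *Mup1* above and *Mup3*, *Mup20* and *Mup18* below the vehicle mice. Without vehicle 1 there were 2. The shares of a mouse have a fixed sum, so higher shares of some copies mean lower shares of others. The levels of *Mup3*, *Mup20* and *Mup18* had positive log2 fold changes over all mice (0.17, 0.61 and 0.46). Single copies are as uncertain in share as in level, since reads may be shared between them.

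**Figure D4:**
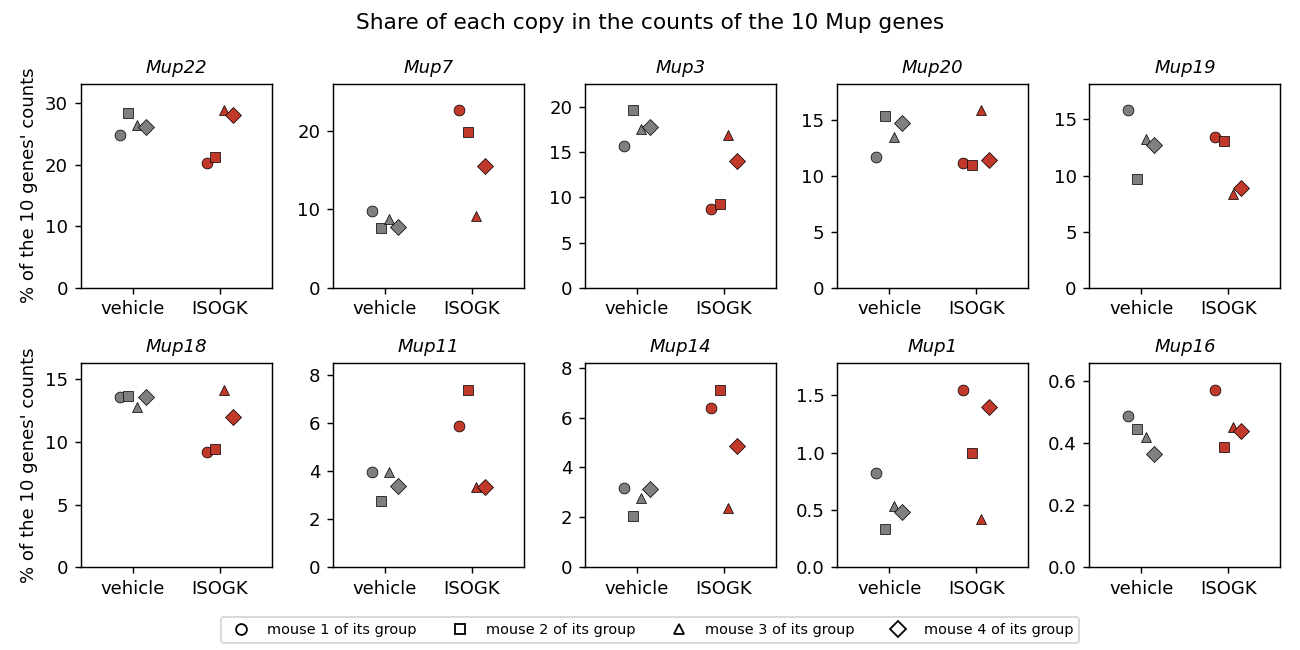
Each panel gives the share of a copy in the raw counts of the 10 *Mup* genes, in percent, for the 4 vehicle (grey) and 4 ISOGK (red) mice, with an axis that starts at 0 in every panel. ISOGK 3 (triangle) has 9.20% for *Mup7*, within the 7.65% to 9.86% of the vehicle mice.

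Grouped after their values had been seen, and so without a test, *Mup7*, *Mup11*, *Mup14* and *Mup1* summed to 4968 ± 1756 CPM (SD, n = 4) with vehicle and 17131 ± 10573 CPM with ISOGK, a ratio of 3.45. The other 6 copies summed to 26881 ± 5438 and 38546 ± 10254 CPM, a ratio of 1.43. Both sums placed ISOGK 3 (4510 and 24938 CPM) among the vehicle mice.

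Levels per length were compared as CPM per kilobase of the representative transcript. With vehicle the order was *Mup22* (9726 ± 1824 CPM per kilobase, SD, n = 4), *Mup3* (5649), *Mup20* (4666), *Mup18* (4603), *Mup19* (4530), *Mup7* (2975), *Mup11* (1219), *Mup14* (967), *Mup1* (196) and *Mup16* (149). Neighbours in that order did not overlap between *Mup22* and *Mup3*, between *Mup7* and *Mup11* and between *Mup14* and *Mup1*, while the ranges of all other neighbours overlapped. Within each of the 4 vehicle mice, *Mup3* was still above *Mup20*, *Mup19* above *Mup7* and *Mup11* above *Mup14*. By the length of all annotated exons, *Mup16* ranked 9 and *Mup1* ranked 10 with vehicle. With ISOGK, *Mup7* (11094 ± 6930) stood second after *Mup22* (15201 ± 3747) and *Mup3* (6341 ± 1022) stood below *Mup20* and *Mup19*, and the ranges of all neighbours overlapped. Within each of the 4 ISOGK mice, *Mup18* was above *Mup14* and *Mup11* above *Mup1*. *Mup18* ranked 6 with ISOGK, and 4 by the length of all annotated exons.

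The other *Mup* symbols of the table carried little of the total. Of 10, *Mup6* did not pass the filter, with 0 to 6 counts per library, and the 9 tested were *Mup9*, *Mup15*, *Mup12*, *Mup21*, *Mup17*, *Mup2*, *Mup8*, *Mup13* and *Mup10*. All 9 log2 fold changes were positive, with a median of 1.18, where 6173 of all 12307 were positive. At an unadjusted p under 0.05 in edgeR 3 were higher, where 12.5% of all tested genes were. By edgeR, DESeq2 or limma-voom 0 were called, where 7.55%, 11.7% and 7.09% of all tested genes were called. Copies with shared stretches may share reads, so these 9 are not separate observations. *Mup15* had 54.7, 6.01, 58.6 and 8.58 CPM in vehicle 1 to 4 and 436, 428, 6.56 and 40.3 CPM in ISOGK 1 to 4. *Mup17* had 45.9, 7.36, 31.9 and 11.6 CPM in vehicle 1 to 4 and 322, 197, 11.3 and 35.4 CPM in ISOGK 1 to 4. In both, vehicle 2 and 4 were low and ISOGK 1 and 2 high, and ISOGK 3 fell among the low vehicle mice. Without ISOGK 3, edgeR called 3 of the 9. *Mup15* shares 100% of its 50-base stretches with other copies and *Mup17* shares 78.1%. *Mup9*, just under the limit of the 10, had 84.6 to 138 CPM with vehicle and 89.3 to 235 CPM with ISOGK, with a log2 ratio of 0.69 (adjusted p = 0.179 in edgeR).

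The sequence upstream of the copies was read from RefSeq promoters (GRCm38.p6, 250 bases before to 50 after the annotated start), which matched 6 of the 10 genes: *Mup7*, *Mup3*, *Mup19*, *Mup18*, *Mup11* and *Mup14*. The letters TATATAA, sought on both strands after the sequences had been seen, were in 5 of these 6 and in 3.24% of all 32851 promoters. The annotated starts of the copies differed, so that the first of these letters stood at -31 from the start for *Mup19*, -28 for *Mup18*, -11 for *Mup3*, -2 for *Mup11* and 13 for *Mup14*. The 80 bases that end with them are given below, with TATATAA in capitals, since most of the matched copies hold them. The letters were not in the window of *Mup7*, and *Mup22*, *Mup20*, *Mup1* and *Mup16* had no matched promoter.

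Mup19: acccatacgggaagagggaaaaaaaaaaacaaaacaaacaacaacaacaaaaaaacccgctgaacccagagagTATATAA
Mup18: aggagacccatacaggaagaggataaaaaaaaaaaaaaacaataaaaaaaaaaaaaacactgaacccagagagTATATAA
Mup11: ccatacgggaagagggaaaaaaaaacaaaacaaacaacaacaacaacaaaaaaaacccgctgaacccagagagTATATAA
Mup14: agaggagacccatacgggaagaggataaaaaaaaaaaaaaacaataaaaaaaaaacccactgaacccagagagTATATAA
Mup3: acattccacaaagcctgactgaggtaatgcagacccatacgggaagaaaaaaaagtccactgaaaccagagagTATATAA

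These lay on the minus strand at chr4:61782249-61782328 for *Mup19*, chr4:61674116-61674195 for *Mup18*, chr4:60662391-60662470 for *Mup11*, chr4:61303980-61304059 for *Mup14* and chr4:62087322-62087401 for *Mup3*. On either strand, TTCNNNGAA, the core of a STAT element, was in 0 of the 6 windows and in 8.3% of all promoters, and TATAAA was in 0 and 13.6%. TTATGTAA, the D-box of factors such as HLF, was in 0 and 0.938%, and TGTTCT, a single arm of a glucocorticoid receptor site, was in *Mup3* alone and in 19% of all promoters. None of these motifs contains another. A missing match says only that the letters are not in these windows.

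Like the *Mup* genes, many genes of mouse liver are higher in males. Of 16 male-biased liver genes 15 were tested, and 3 rose and 0 fell at an adjusted p under 0.05 in edgeR, where 4.11% of all tested genes rose and 3.44% fell. The median log2 fold change was 0.38. *Ugt2b38*, a glucuronosyltransferase, had a log2 ratio of 0.68 (edgeR adjusted p = 0.00651) and was at 38.5 to 51.4 CPM with vehicle and 68.1 to 89.3 CPM with ISOGK. *Gstp1*, a glutathione transferase, and *Cyp2d9*, a steroid hydroxylase of male liver, had log2 fold changes of 0.57 and 0.53 (edgeR adjusted p = 0.0316 and 0.0494). In *Cyp2d9*, as in the *Mup* genes, ISOGK 3 was the lowest ISOGK mouse (775 CPM) and lay among the vehicle mice (681 to 836 CPM). Outside the rule for named genes, *Hsd3b5*, a male-specific steroid enzyme, was at 51.4 to 83.5 CPM with vehicle and 6.60 to 38.7 CPM with ISOGK, with a log2 ratio of -2.04 (adjusted p = 0.0708 in edgeR). The male-biased list had 6 calls without ISOGK 3 and 1 call without vehicle 2, vehicle 3, vehicle 4 or ISOGK 2.

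Of 28 female-biased liver genes 16 were tested, of which 1 rose and 3 fell, where 4.11% of all tested genes rose and 3.44% fell. The median of the list was -0.19 in log2 units. *Cyp17a1*, a steroid 17-hydroxylase, rose by 1.85 (edgeR adjusted p = 0.000689), from 14.8 to 16.7 CPM with vehicle to 45.5 to 84.2 CPM with ISOGK, and ISOGK 3 was its highest mouse. *Cyp2b9*, a cytochrome P450 whose reads may be shared with other *Cyp2b* copies, fell by 4.07 on the log2 scale (edgeR adjusted p = 0.00322). It was at 9.97 to 19.3 CPM with vehicle and 0.245 to 2.26 CPM with ISOGK. The ISOGK values rest on 5 to 40 counts, so the size of this fall is uncertain. *Hamp2*, a hepcidin gene, and *Atp6v0d2*, a proton pump subunit, fell by 1.58 and 1.49 (edgeR adjusted p = 0.0249 and 0.0361). Without vehicle 2, vehicle 4 or ISOGK 2 there were 2 calls in this list.

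Of 10 genes of growth hormone signalling, which drives *Mup* transcription in males, 9 were tested. Of these 0 rose and 2 fell, where 4.11% of all tested genes rose and 3.44% fell. The median log2 fold change was -0.39, and 4 of the 9 were positive. These mRNA levels do not measure the activity of the pathway. *Ghr*, the growth hormone receptor, was at 203 to 232 CPM with vehicle and 142 to 176 CPM with ISOGK, without overlap, with a log2 ratio of -0.45 (adjusted p = 0.0181 in edgeR). *Igfals*, the subunit that holds IGF1 in the circulation, was at 62.5 to 95.1 CPM with vehicle and 41.9 to 52.8 CPM with ISOGK, with a log2 ratio of -0.66 (adjusted p = 0.0133 in edgeR). Outside the rule for named genes, *Stat5b* and *Igf1* had log2 ratios of 0.17 and 0.03 (edgeR adjusted p = 0.312 and 0.894). A single call of this list was left, 1 of 9, without vehicle 1, vehicle 2 or vehicle 4.

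Of 16 transcription factors and receptors that regulate *Mup* or hepatocyte genes, 0 rose and 4 fell, where 4.11% of all tested genes rose and 3.44% fell. The median log2 fold change of the list was -0.45. Among the 4 that fell were *Hlf*, a D-box factor, *Thrb*, the thyroid hormone receptor beta, and *Nr3c1*, the glucocorticoid receptor. Their log2 fold changes were -0.51, -0.89 and -0.41 (edgeR adjusted p = 0.00607, 0.00815 and 0.0376). *Thrb* was at 22.1 to 30.7 CPM with vehicle and 10.3 to 17.6 CPM with ISOGK. In all 3 the groups did not overlap, so ISOGK 3 lay with its group here. Picked after their values were seen, *Dbp*, *Onecut1* and *Tef* had log2 ratios of -2.28, -1.39 and -1.29 (edgeR adjusted p = 0.256, 0.224 and 0.106). ISOGK 1 stood apart from its group in them, at 10.5, 23.4 and 72.8 CPM. The other ISOGK mice were at 0.369 to 0.681, 4.56 to 5.48 and 22.3 to 27.0 CPM. In ISOGK 1, 2 and 4 the family total was above, and *Hlf*, *Thrb* and *Nr3c1* were below, every vehicle mouse.

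Other secreted proteins of hepatocytes were compared with the family. Of 8 lipocalin genes tested outside the *Mup* family 1 rose, where 4.11% of all tested genes rose. This was *Rbp4*, the plasma carrier of retinol, which was at 1599 to 1804 CPM with vehicle and 2000 to 2410 CPM with ISOGK (log2 fold change 0.38, edgeR adjusted p = 0.0381). *Ambp*, the next lipocalin by the naming rule, had a log2 ratio of -0.03 (edgeR adjusted p = 0.907), and the median of the list was 0.26. Of 22 abundant secreted liver proteins 1 rose, again beside 4.11% of all tested genes. This was *Serpina3k*, a serine protease inhibitor, whose log2 ratio was 0.73 (adjusted p = 0.0138 in edgeR), and the median of the list was 0.11. *Alb*, the gene of albumin, was at 123530 ± 4099 CPM (SD, n = 4) with vehicle and 125410 ± 15527 CPM with ISOGK. The call of the lipocalin list was lost without vehicle 1, 2, 3 or 4 or without ISOGK 1 or 2, and the secreted list had 2 calls without vehicle 1 and 0 without vehicle 2. ISOGK 4 stood apart in several acute-phase genes of these lists, which were picked after their values were seen. *Fga*, a fibrinogen chain, was at 21271 CPM in ISOGK 4 and at 6679 to 9562 CPM in all other mice. *Hp*, which binds free haemoglobin, was at 11163 CPM in ISOGK 4 and at 3759 to 4851 CPM elsewhere. The lipocalins *Lcn2* and *Orm1* were at 506 and 1675 CPM in ISOGK 4, against 37.8 to 103 CPM and 385 to 684 CPM in the other mice. Without ISOGK 4 each of these lists had 1 call, and the 10 *Mup* genes had 0 calls and a median log2 fold change of 0.87. Over all tested genes 5.45% were then called.

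Genes beside the cluster had a median fold change near that of all tested genes. Within 2 Mb of the outer members, 33 of 41 genes were tested, and 1 rose, 1 fell and the median log2 fold change was -0.07, where 4.11% of all tested genes rose and 3.44% fell. *Hsdl2*, a peroxisomal dehydrogenase-like protein, rose by 1.14 (edgeR adjusted p = 0.000738) and *Ptgr1*, a prostaglandin reductase, fell by 1.23 (edgeR adjusted p = 0.0184). *Orm2*, an acute-phase lipocalin of that region picked after its values were seen, was at 384 CPM in ISOGK 4 and at 18 to 104 CPM in all other mice. Without vehicle 1 or vehicle 2 this list had 1 call.

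**Figure D5:**
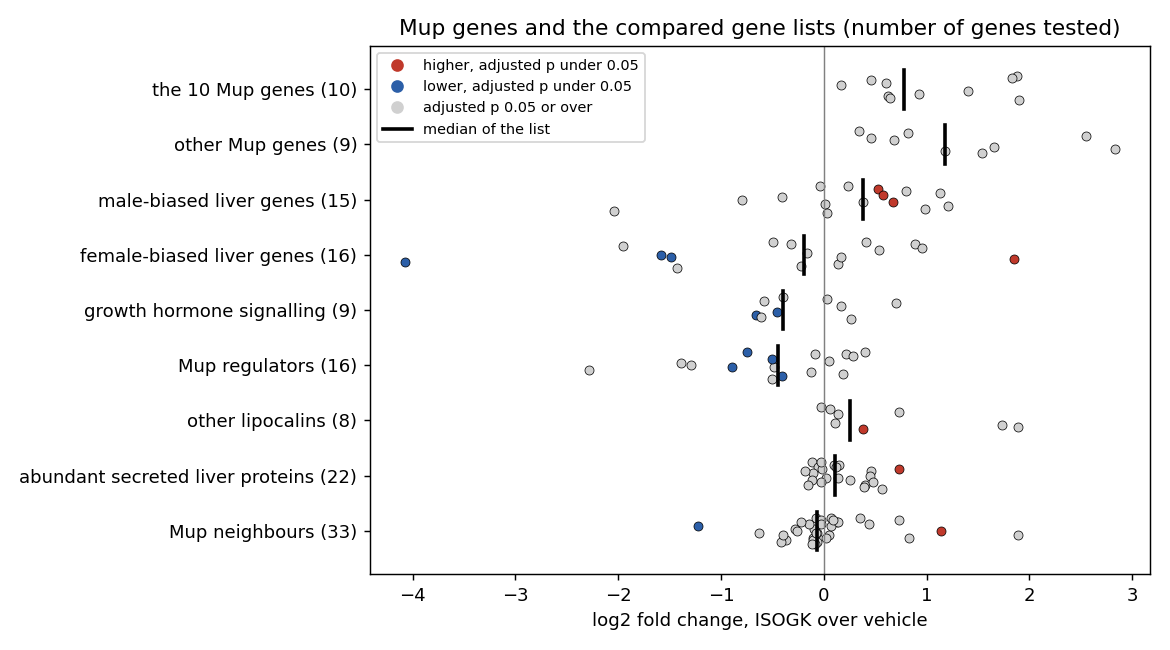
Each point is the log2 fold change (ISOGK over vehicle) of a tested gene, red or blue where edgeR called it higher or lower at an adjusted p under 0.05 and grey otherwise, with a black line for the median of each list. The 10 *Mup* genes and the 9 other *Mup* genes lie above 0 with medians of 0.78 and 1.18 and hold 0 calls, and the list of regulators has a median of -0.45.

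The genes outside the family whose pattern over the 8 mice was most like the family total were found by the root mean square difference of centred log2 CPM, among 6799 genes with a mean of at least 10 CPM. These were *Cyp4a12b* (0.245), *Slc25a33* (0.250), *Hba-a1* (0.251), *Ugt2b5* (0.275) and *Rarres1* (0.277). *Cyp4a12b*, a fatty acid hydroxylase of male liver, was at 54.4, 36.9, 34.3 and 35.4 CPM in vehicle 1 to 4 and 156, 105, 46.9 and 65.3 CPM in ISOGK 1 to 4. As in the *Mup* genes, vehicle 1 was the highest of its group and ISOGK 3 the lowest. These genes were chosen for that pattern, and no test was made.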

How the data were processed

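Liver RNA of 4 vehicle and 4 ISOGK mice was sequenced single-end on an Illumina platform, and the authors aligned reads with HISAT2 and counted them per gene with StringTie (mm10 in the submitters' notes). How reads matching several copies were counted, and the use of strand, are not given in the sources used here. The deposited values are raw counts for 16540 gene symbols. Columns named DMSO were taken as the vehicle group, 0 columns of per-sample values were left unused, and groups and mouse numbers came from the labels. That the mice were separate animals rests on the labels, and libraries within a group differed by a chi-square per gene of 18.1 to 99.6, where sampling noise gives about 1.

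Counts were filtered with filterByExpr of edgeR 4.0.16 (minimum count 10, minimum total 15), which left 12307 genes, scaled with TMM and tested with the robust quasi-likelihood test over all of them in R 4.3.3, with Benjamini-Hochberg adjustment. A gene was called at an adjusted p under 0.05. CPM used TMM factors. Family totals, copy shares and levels per kilobase had no test. The 17 alternatives were DESeq2 1.42.0, limma-voom (limma 3.58.1), other scalings and filters, no robust option, the mouse number as a block, and each mouse left out. Counting intervals would cover counting error only, which is small beside the spread between mice at these depths (17457106 to 24461854 counts per library), and were not used.

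The 10 genes and all lists were chosen with earlier results of these data known. Named genes were all *Mup* symbols, up to 5 called genes of each list by smallest adjusted p, the 2 of highest mean CPM where fewer than 2 were called, and the 5 genes most like the family total. Exceptions are marked in the text, and 1 gene under this rule is not reported here. Of the symbols, 16211 matched GENCODE M21. Identity was computed on coding sequences of that annotation, and protein sequences were not used here.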

Additional observations from a re-analysis of the deposited data

Results flagged for a closer look

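Among 62 sets of 4 values examined (levels and copy shares of the *Mup* genes in each group), 4 had a mouse far from the other 3 by Dixon's test, where chance gives about 3.1. *Mup21* in ISOGK 1 was at 143 CPM, with the other ISOGK mice at 81.9 to 85.7 CPM. *Mup8* in vehicle 1 was at 5.07 CPM, with the other vehicle mice at 1.79 to 2.06 CPM. The share of *Mup20* in the counts of the 10 genes was 15.9% in ISOGK 3 and 11.0% to 11.5% in the other ISOGK mice. The share of *Mup18* was 12.8% in vehicle 3 and 13.6% to 13.7% in the other vehicle mice. No explanation of these values was tested.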

How the results depend on the processing

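The direction of all 10 log2 fold changes was positive under each of the 17 alternatives, as was the log2 ratio of the family total wherever it was recomputed. Lists were followed by their counts of calls alone. Of the 10 genes, DESeq2 called 5 (11.7% of all tested genes), a filter of at least 10 counts in every library 1 (*Mup20*, 7.89%), the fit without the robust option 2 (*Mup7* and *Mup14*, 7.41%) and the fit with mouse number as a block 3 (*Mup22*, *Mup20* and *Mup16*, 6.72%), against 0 by edgeR as reported (7.55%). Leaving out each mouse gave 379 to 1235 calls over all tested genes, 0 to 6 among the 10, 0 to 3 among other *Mup* genes, 1 to 6 among male-biased, 2 to 5 among female-biased, 1 to 3 among growth hormone signalling, 3 to 6 among regulator, 0 to 1 among lipocalin, 0 to 2 among secreted protein and 1 to 3 among neighbouring genes. The highest counts for the *Mup* genes came without ISOGK 3. The log2 ratio of family totals ran from 0.60 to 1.01 and the count of separate shares from 0 to 6 when each mouse was left out. For male-biased genes, with 3 calls as reported, DESeq2 gave 9, limma-voom 5, library size alone 1, no robust option 6 and the block 7. The block gave 2 calls among female-biased genes, 1 among other *Mup* genes and 0 among lipocalins, where library size alone also gave 0. For secreted proteins DESeq2, no filter and the stricter filter each gave 2.

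Mouse numbers gave no sign of pairing the mice. The deviations of mice with the same number correlated at -0.01 to 0.08 and 1 of 4 vehicle mice correlated best with its own number. These correlations cannot exclude a pairing, which the labels do not state, so the block result is a hint only. Scaling by library size alone moved the median log2 fold change of all genes to -0.13. Where a mouse is left out, 3 mice stand for its group. The lowest count behind any of the 10 genes was 2127, for *Mup16* in vehicle 4. The effect of reads shared between copies was not tested. The cause of the changes under the alternatives was not tested.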
